A study of Fragaria vesca with 12 samples.

Results

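The genes described here encode the photosynthetic apparatus and the enzymes around it in ripe fruit of the strawberry *Fragaria vesca*. They were taken as all genes of the deposited table whose description contains "photosystem", "chlorophyll", "light harvesting", "light-harvesting", "ribulose" or "rubisco", which gave 95 of 34008 genes. By their descriptions, 35 belong to the light-harvesting antenna, 26 to photosystem II, 12 to photosystem I and 11 to Rubisco and other ribulose enzymes. The remaining 11 comprise 1 gene of chlorophyll synthesis, 5 chlorophyllases and 5 other factors named for chlorophyll fluorescence. Fruit of 'Mara des Bois' was compared in 4 conditions with 3 libraries each. CCS fruit was held for 7 days at 1°C, of which 2 days were under 18% CO2 with 18% O2 and 64% N2 and the other 5 in air, and was then moved to 20°C for 1 day. ACS fruit spent the same 7 days at 1°C in air and then 1 day at 20°C. NCS fruit was never cooled and was held for 2 days at 20°C and 80% relative humidity. AH fruit was taken 2 h after harvest. The sample descriptions and the study's RNA methods give each replicate as a mixture of at least 50 strawberries. The study's section on plant material gives smaller batches, so that the size of the pools is not settled. CO2 and air were each supplied to a single container, so that gas and container cannot be told apart. The same 3 AH libraries serve all comparisons with AH, and time since harvest and temperature differ together between the conditions.

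Photosystem II and photosystem I are pigment-protein complexes of the thylakoid membrane that use light to drive electrons from water to NADPH. Light-harvesting proteins carry most of the chlorophyll and pass excitation energy to the reaction centres, and early light-induced proteins (ELIPs) are stress-induced relatives of the antenna proteins. Rubisco fixes CO2 in the Calvin cycle, and Rubisco activase frees its active site from bound sugar phosphates. A ripening strawberry loses chlorophyll as chloroplasts give way to other plastids, so that in ripe receptacle these genes are at a residual level, while the achenes, the true fruits on its surface, were part of a whole berry as sampled. The reaction-centre core proteins are encoded in the plastid genome, and most other subunits in the nucleus.

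Library sizes recovered from the RPKM values were 64.2 to 119.9 M reads, of which 93.6% to 95.5% fell on genes. The study states smaller numbers of paired-end reads, so the read counts given here may count both mates of a pair. Levels are RPKM, reads scaled to gene length and library size, and 10 reads on a typical gene of median length equalled 0.0279 to 0.0522 RPKM. The labelled tissue was checked against 9 flavonoid genes of ripe receptacle, whose summed level was 1831 to 1915 RPKM in CCS, 1644 to 1736 RPKM in ACS, 2010 to 2094 RPKM in NCS and 1445 to 1595 RPKM in AH, with 1 of the 9 at 0 throughout. The libraries AH3, ACS1 and ACS2 stood apart in 2 of the 3 members annotated as PsaA/PsaB or D2, core proteins of the reaction centres. The PsaA/PsaB gene FvH4_3g21080, named for the photosystem I core, had 0.940, 2.09 and 1.47 RPKM in CCS, 4.60, 2.92 and 0.851 RPKM in ACS, 0.695, 0.685 and 0.460 RPKM in NCS and 0.374, 0.729 and 5.02 RPKM in AH. The photosystem II D2 gene FvH4_3g42261 was highest in the same libraries, at 1.09 RPKM in AH3, 0.954 RPKM in ACS1 and 0.572 RPKM in ACS2, against at most 0.349 RPKM in the other 9. A second PsaA/PsaB gene, FvH4_6g53291, did not follow, with at most 0.0937 RPKM in any library and 44 reads in all. The differences of FvH4_3g21080 from AH are given below with and without these libraries.

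Most photosynthesis genes averaged below 10 RPKM, and the highest member stood at percentile 90.0 of all genes by mean. Over the 12 libraries, 3 members averaged at least 10 RPKM, 34 averaged 1 to 10 RPKM, 35 averaged 0.1 to 1 RPKM and 23 were below 0.1 RPKM. The ELIP-like gene FvH4_4g01300 was at 0 in all 12 libraries, which leaves 94 members above 0. Together the 95 genes summed to 142 to 153 RPKM in CCS, 120 to 142 RPKM in ACS, 117 to 121 RPKM in NCS and 211 to 245 RPKM in AH, or 0.0317% to 0.0616% of all RPKM. Every stored library thus lay below every AH library in this sum. The mean sum was 0.655 times that of AH in CCS, 0.575 times in ACS and 0.529 times in NCS. In bulk fruit RNA, fewer cells of a type and less RNA per cell cannot be told apart.

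The groups differed in how far their summed level lay below AH. The 23 light-harvesting proteins summed to 12.6 to 16.7 RPKM in CCS, 9.13 to 12.9 RPKM in ACS, 6.62 to 7.90 RPKM in NCS and 22.1 to 29.1 RPKM in AH. Their sum was thus lowest in NCS, and all 3 CCS libraries and all 3 ACS libraries lay above all 3 NCS libraries. The 12 photosystem I genes summed to 16.5 to 16.6 RPKM in CCS, 13.7 to 19.3 RPKM in ACS, 8.06 to 8.54 RPKM in NCS and 18.4 to 23.8 RPKM in AH. Here ACS overlapped AH. Without the PsaA/PsaB gene described above the other 11 summed to 14.5 to 15.6 RPKM in CCS, 12.3 to 14.8 RPKM in ACS, 7.60 to 7.84 RPKM in NCS and 17.7 to 23.2 RPKM in AH, with no overlap of any stored condition with AH. The 14 photosystem II subunits and assembly factors summed to 25.3 to 29.2 RPKM in CCS, 20.5 to 25.6 RPKM in ACS, 20.2 to 20.9 RPKM in NCS and 48.8 to 62.8 RPKM in AH. The 12 genes of the wider PsbP family, some of which a second annotation names as Ran release factors, lay closer to AH, at 12.9 to 13.8 RPKM in CCS, 12.2 to 12.8 RPKM in ACS, 11.3 to 12.7 RPKM in NCS and 13.7 to 16.4 RPKM in AH.

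**Figure D1:**
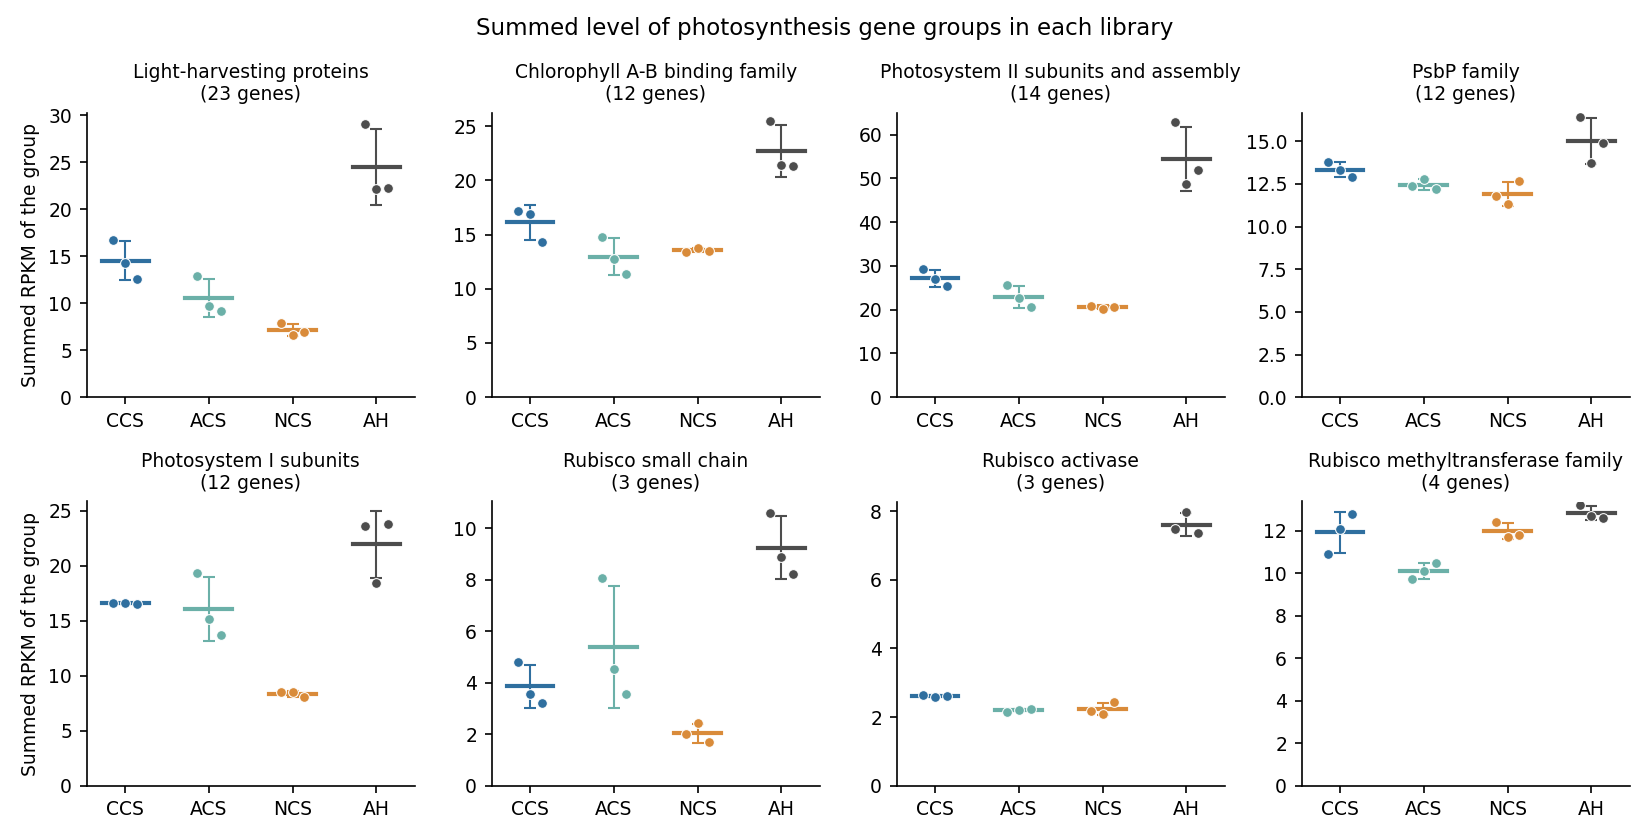
Summed RPKM (vertical axes, from 0) of 8 groups of photosynthesis genes in the 3 libraries of CCS, ACS, NCS and AH, with each point 1 library, the bar the mean and the whisker 1 SD. Every group averaged highest in AH, the light-harvesting proteins ran from 14.5 RPKM in CCS over 10.6 RPKM in ACS to 7.13 RPKM in NCS, and the 3 activases lay between 2.08 and 2.64 RPKM in all 9 stored libraries.

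Against AH, members called by limma on log2(RPKM + 0.1) at an adjusted p of 0.05 or less were almost all lower. A gene entered the test when no fewer than 3 of its 6 libraries held 0.5 RPKM or more. In CCS, 54 of the 95 members passed this filter, 28 fell and 0 rose, where 13.9% of all 16622 genes tested were called lower and 23.6% higher. In ACS, 54 passed, 36 fell and 1 rose, against 20.9% and 21.9% of all genes. In NCS, 51 passed, 35 fell and 0 rose, against 21.4% and 14.7% of all genes. The median log2 fold change of the members tested was -0.40 in CCS, -0.74 in ACS and -0.97 in NCS, and that of all genes tested was 0.07 in CCS, 0.01 in ACS and -0.07 in NCS. With an absolute log2 fold change of at least 1.5 as well, 6 members were lower in CCS, 9 in ACS and 19 in NCS, where 1.15%, 1.40% and 2.36% of all genes were, and with a pseudocount of 1 in place of 0.1 the members numbered 2, 2 and 6. On the same rule 0 members were higher in any of the 3, where 5.47%, 7.15% and 3.98% of all genes were.

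The filter admitted some members through AH alone, 1 in CCS, 2 in ACS and 11 in NCS, and such members had to differ. Without any filter on low values, 35 of 94 members fell in CCS (37.2%, against 7.96% of all genes), 48 in ACS (51.1%, against 12%) and 56 in NCS (59.6%, against 12.6%). With a filter on the mean over all 12 libraries, a choice made after the data were seen, 51 members were tested in each comparison, of which 27 fell in CCS, 35 in ACS and 34 in NCS, against 13.6%, 20.7% and 20.4% of all genes. A count that needs no filter gave the same direction, since all 3 libraries lay below all 3 AH libraries for 45 of 94 members in CCS, 54 in ACS and 65 in NCS, where 13.7%, 18.5% and 22.1% of all genes above 0 did so. The opposite arrangement held for 4 members in CCS, 5 in ACS and 1 in NCS, where 24.8%, 22.4% and 15.4% of all genes above 0 did so.

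**Figure D2:**
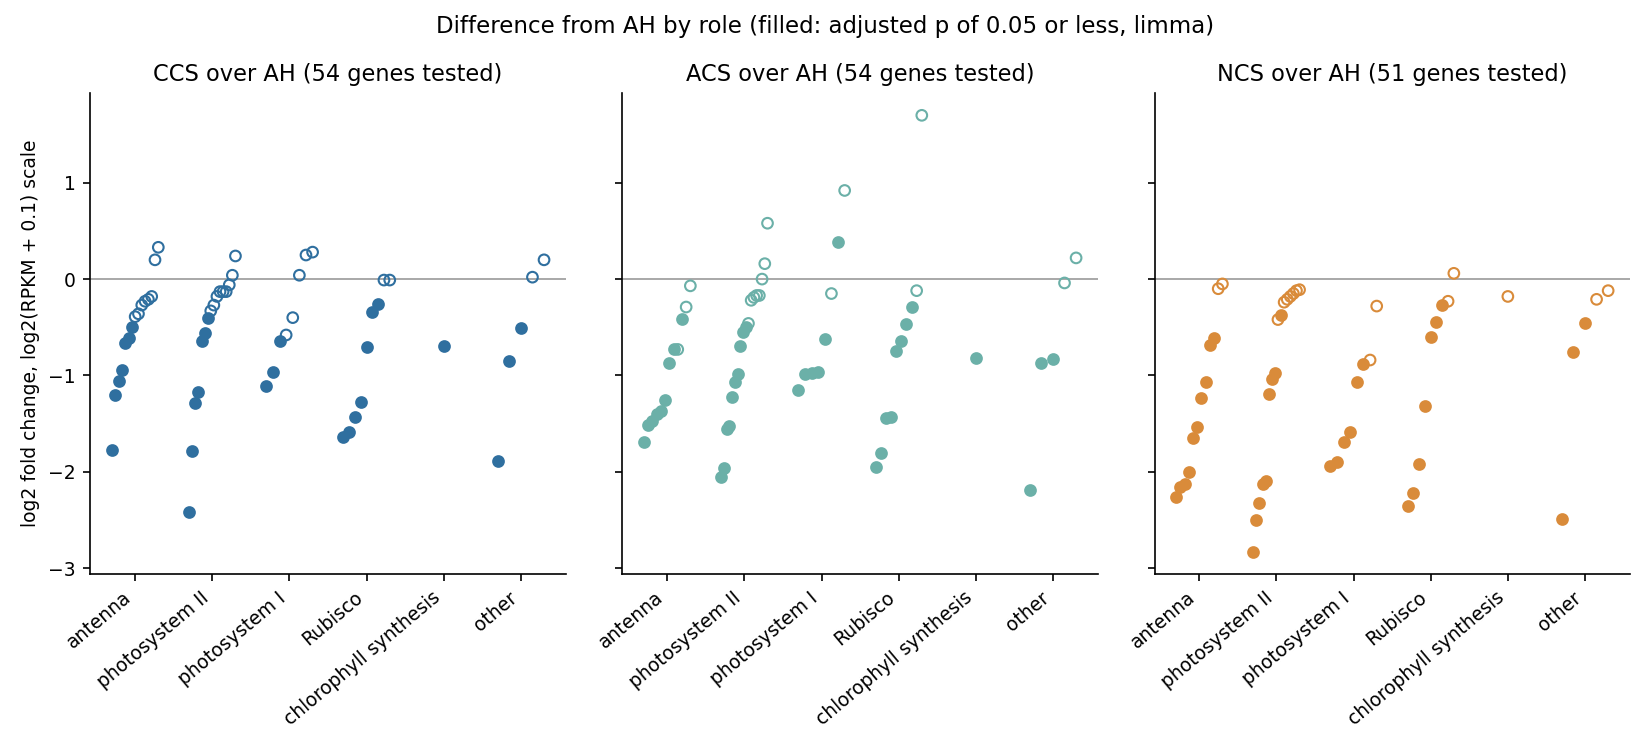
Log2 fold change over AH, on the log2(RPKM + 0.1) scale, of each member that passed the filter in CCS, ACS and NCS, sorted by role along the horizontal axis; filled points passed an adjusted p of 0.05 with limma and open points did not. Filled points lie below 0 except for 1 photosystem I gene in ACS, and the lowest values are -2.42 in CCS, -2.19 in ACS and -2.83 in NCS.

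Of the 51 members tested in all 3 comparisons with AH, 26 were lower in all 3 (9.87% of all genes tested in the 3), 0 were higher in all 3 and 10 changed in none. The 26 comprised 7 of 12 antenna genes, 6 of 16 photosystem II genes, 3 of 8 photosystem I genes, 7 of 9 Rubisco genes and 3 of 5 other factors. Of the 26, 8 entered at least 1 of these tests through AH alone, where they had to differ. The 18 that did not comprised 3 antenna, 5 photosystem II, 1 photosystem I and 6 Rubisco genes and 3 other factors. The 10 that changed in none included 4 photosystem II genes, 3 of them of the PsbP family. The order of the means was AH, CCS, ACS and NCS from high to low in 37 of the 94 members above 0. The mean was highest in AH for 67 and lowest in NCS for 68. How many of all genes share these orders of means was not counted, so they are not read as particular to the members. All 3 AH libraries exceeded all 9 others in 38 members (40.4%, against 8.69% of all genes).

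Markers of other tissues were read beside these counts. A list of 220 achene and seed genes was drawn by description words that include oleosin, seed storage, late embryogenesis abundant and cupin. The paper reports a late embryogenesis abundant gene among those activated by high CO2, so the list need not mark achenes alone. With 25 genes at 0, it summed to 9880 to 14714 RPKM in CCS, 12743 to 18024 RPKM in ACS, 10097 to 10689 RPKM in NCS and 19440 to 22235 RPKM in AH. This sum was thus also highest in AH. One gene of the 2S albumin family, FvH4_5g18321, made up much of that sum, at 4525 to 4932 RPKM in CCS, 4638 to 4925 RPKM in ACS, 5592 to 5621 RPKM in NCS and 9510 to 10997 RPKM in AH. Without it the list summed to 4948 to 10190 RPKM in CCS, 7982 to 13167 RPKM in ACS, 4490 to 5068 RPKM in NCS and 8546 to 12725 RPKM in AH, so that CCS and ACS overlapped AH. Of the list, 17 fell and 40 rose of 114 tested in CCS (14.9% and 35.1%, against 13.9% and 23.6% of all genes), 24 fell and 42 rose of 112 in ACS (21.4% and 37.5%, against 20.9% and 21.9%), and 54 fell and 28 rose of 106 in NCS (50.9% and 26.4%, against 21.4% and 14.7%). The 9 oleosins of that list, which coat oil bodies in seeds, summed to 516 to 1676 RPKM in CCS, 996 to 2109 RPKM in ACS, 308 to 408 RPKM in NCS and 1249 to 1742 RPKM in AH, with none at 0. A list of 32 photorespiration and carbonic anhydrase genes, which green leaf or calyx would carry, summed to 397 to 406 RPKM in CCS, 370 to 388 RPKM in ACS, 443 to 452 RPKM in NCS and 424 to 436 RPKM in AH, with 3 of the 32 at 0. The part of other tissues in the results was not tested.

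Among antenna genes, the most abundant gene described as a light-harvesting protein fell in every stored condition. FvH4_6g38460, described as chlorophyll A/B binding protein 1, a major protein of the trimeric photosystem II antenna, had 5.30, 4.95 and 3.73 RPKM in CCS, 4.31, 2.77 and 2.43 RPKM in ACS, 1.97, 1.47 and 1.94 RPKM in NCS and 11.5, 8.13 and 7.55 RPKM in AH. No stored library reached the lowest AH library, and all CCS and ACS libraries exceeded all NCS libraries. Relative to AH its log2 fold change was -0.94 in CCS (SE 0.20, adjusted p = 0.0106, limma), -1.51 in ACS (SE 0.25, adjusted p = 0.00308, limma) and -2.26 in NCS (SE 0.19, adjusted p = 1.4e-04, limma). It was higher in CCS than in NCS by 1.32 (SE 0.16, adjusted p = 9.2e-04, limma), while CCS and ACS overlapped and differed by 0.57 (SE 0.23, adjusted p = 0.118, limma). Its neighbour FvH4_6g38450 bears the same description, and reads of such near copies could have been shared between them in counting.

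CP24, a minor antenna protein that links the trimers to the photosystem II core, was lower in NCS than in both cold-stored conditions. FvH4_5g30940 had 1.75, 2.12 and 1.62 RPKM in CCS, 1.36, 1.20 and 1.09 RPKM in ACS, 0.652, 0.656 and 0.639 RPKM in NCS and 2.44, 1.85 and 1.97 RPKM in AH. The libraries of CCS overlapped those of AH, while those of ACS and NCS lay below both. CP24 differed from AH by a log2 fold change of -0.18 in CCS (SE 0.14, adjusted p = 0.383, limma), -0.73 in ACS (SE 0.13, adjusted p = 0.00476, limma) and -1.54 in NCS (SE 0.11, adjusted p = 8.1e-05, limma). Over NCS it was 1.36 in CCS (SE 0.10, adjusted p = 9.2e-05, limma) and 0.81 in ACS (SE 0.08, adjusted p = 4.4e-04, limma). The difference between CCS and ACS of 0.55 (SE 0.12, adjusted p = 0.0203, limma) was no longer called without ACS2 (adjusted p = 0.0667, limma) or ACS3 (adjusted p = 0.0506, limma).

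The ELIP gene FvH4_4g01290 had 2.45, 2.13 and 0.925 RPKM in CCS, 1.07, 0.761 and 0.415 RPKM in ACS, 0.571, 0.614 and 0.514 RPKM in NCS and 1.92, 1.90 and 2.14 RPKM in AH. Against AH its log2 fold change was -0.21 in CCS (SE 0.33, adjusted p = 0.667, limma), -1.37 in ACS (SE 0.28, adjusted p = 0.00806, limma) and -1.65 in NCS (SE 0.09, adjusted p = 2.4e-05, limma). In CCS 2 libraries were at the AH level and CCS3 was at 0.925 RPKM. The difference between CCS and ACS was 1.16 (SE 0.43, adjusted p = 0.0934, limma) with all libraries and 1.57 (adjusted p = 0.0366, limma) without CCS3. CCS exceeded NCS by 1.44 (SE 0.33, adjusted p = 0.0123, limma). Other ELIP-like genes lie next to it in the numbering of identifiers, and their reads could have been shared.

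Other antenna genes included some with larger falls. Named after their values were seen, Lhca2 of the photosystem I antenna (FvH4_4g23750), Lhca4 of the same antenna (FvH4_5g14770) and the minor photosystem II antenna protein CP29 (FvH4_6g11540) fell by 1.77, 1.20 and 1.06 on the log2 scale in CCS, by 1.69, 1.40 and 1.47 in ACS and by 2.13, 2.00 and 2.16 in NCS, with adjusted p of at most 0.0108 (limma). In all 3 genes every AH library exceeded every stored library, and in NCS they entered the test through AH alone. FvH4_5g20330, the highest antenna member, is described as a chlorophyll A-B binding family protein although a second annotation in the table names an endonuclease. It had 11.8, 11.5 and 11.3 RPKM in CCS, 10.2, 9.66 and 9.08 RPKM in ACS, 10.8 to 11.1 RPKM in NCS and 20.6, 16.6 and 16.1 RPKM in AH. Its values lay close together in the stored fruit and below all AH libraries, with log2 fold changes of -0.61 in CCS (SE 0.11), -0.87 in ACS (SE 0.12) and -0.68 in NCS (SE 0.11) at adjusted p of 0.00533, 0.00118 and 0.00292 (limma). Lhcb3, the third protein of the antenna trimers (FvH4_3g21020), averaged 1.56 RPKM in CCS, 1.66 RPKM in ACS, 1.44 RPKM in NCS and 2.25 RPKM in AH. Its falls of 0.50, 0.41 and 0.61 on the log2 scale in CCS, ACS and NCS were close to the threshold. With 1 library left out the log2 fold change stayed between -0.60 and -0.38 in CCS, -0.50 and -0.32 in ACS and -0.70 and -0.47 in NCS. The call in CCS was lost without CCS2, CCS3, AH1 or AH2 (adjusted p from 0.0747 to 0.116, limma), the call in ACS without ACS1, ACS2, ACS3, AH1 or AH2 (0.0502 to 0.129), and the call in NCS without NCS3 (0.0512) or AH2 (0.0624). FvH4_6g38390, a second trimer gene with only 179 reads over the 12 libraries, had 1.03, 0.689 and 0.722 RPKM in CCS, 0.532, 0.187 and 0.353 RPKM in ACS, 0.430, 0.164 and 0.187 RPKM in NCS and 0.586, 0.626 and 0.646 RPKM in AH, so that all CCS libraries were above all others. Its difference from AH was 0.33 in CCS (SE 0.15, adjusted p = 0.133, limma), and CCS exceeded NCS by 1.40 (SE 0.29, adjusted p = 0.00777, limma) in a test that it entered through CCS alone.

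Among photosystem II subunits on the lumenal side, PsbQ-2 held the largest log2 fall of the members that passed the filter in CCS and in NCS. PsbQ, PsbP and PsbR are extrinsic or docking proteins of the oxygen-evolving complex, which splits water. PsbQ-2 (FvH4_3g02920) had 0.474, 0.772 and 0.468 RPKM in CCS, 0.845, 0.533 and 0.941 RPKM in ACS, 0.360, 0.585 and 0.287 RPKM in NCS and 4.18, 3.15 and 3.05 RPKM in AH. All 9 stored libraries were below 1 RPKM and all AH libraries above 3 RPKM. Against AH this was a log2 fold change of -2.42 in CCS (SE 0.20, adjusted p = 1.7e-04, limma), -2.05 in ACS (SE 0.21, adjusted p = 3.7e-04, limma) and -2.83 in NCS (SE 0.23, adjusted p = 1.2e-04, limma).

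PsbP-1 (FvH4_6g38900) had 1.69, 1.15 and 0.694 RPKM in CCS, 1.20, 0.952 and 0.691 RPKM in ACS, 0.507, 0.321 and 0.461 RPKM in NCS and 2.96, 2.69 and 2.96 RPKM in AH. Cold-stored fruit thus lay between NCS and AH with no overlap on either side. It fell relative to AH by 1.29 on the log2 scale in CCS (SE 0.28, adjusted p = 0.0110, limma), by 1.53 in ACS (SE 0.18, adjusted p = 6.2e-04, limma) and by 2.50 in NCS (SE 0.15, adjusted p = 2.9e-05, limma). Over NCS it was higher by 1.21 in CCS (SE 0.30, adjusted p = 0.0162, limma), a call lost without NCS2 (adjusted p = 0.0548, limma), and by 0.97 in ACS (SE 0.21, adjusted p = 0.0103, limma). PsbR (FvH4_3g16050), the highest photosystem II member, had 6.03, 5.13 and 5.05 RPKM in CCS, 5.01, 5.14 and 4.10 RPKM in ACS, 3.74, 3.77 and 3.51 RPKM in NCS and 25.6, 15.6 and 16.5 RPKM in AH. AH1 was well above the other AH libraries, and all 3 were above 15 RPKM. For PsbR the log2 fold change over AH was -1.78 in CCS (SE 0.20, adjusted p = 6.2e-04, limma), -1.96 in ACS (SE 0.21, adjusted p = 3.7e-04, limma) and -2.32 in NCS (SE 0.19, adjusted p = 1.3e-04, limma).

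Subunits and factors of assembly behaved less uniformly. PsbX, a small membrane subunit, is described for 2 genes. The more abundant, FvH4_1g08270, averaged 3.47 RPKM in CCS, 2.43 RPKM in ACS, 2.20 RPKM in NCS and 5.18 RPKM in AH, and fell by 0.56 on the log2 scale in CCS (SE 0.10, adjusted p = 0.00606, limma), by 1.07 in ACS (SE 0.15, adjusted p = 0.00137, limma) and by 1.19 in NCS (SE 0.10, adjusted p = 1.3e-04, limma), although a second annotation names it a cadherin-like protein. The other, FvH4_2g31210, had 1.02, 1.02 and 0.683 RPKM in CCS, 0.746, 0.438 and 0.398 RPKM in ACS, 0.149, 0.0738 and 0.380 RPKM in NCS and 1.21, 1.06 and 1.04 RPKM in AH, from 267 reads in all. It fell by 0.98 on the log2 scale in ACS (SE 0.21, adjusted p = 0.00880, limma) and by 2.13 in NCS (SE 0.34, adjusted p = 0.00301, limma), with -0.27 in CCS (adjusted p = 0.238, limma), and CCS exceeded NCS by 1.86 (SE 0.37, adjusted p = 0.00696, limma). It entered the test of NCS against AH through AH alone and that of CCS against NCS through CCS alone. PSB28 (FvH4_2g20470), an assembly factor, averaged 0.550 RPKM in CCS, 0.335 RPKM in ACS, 0.391 RPKM in NCS and 0.912 RPKM in AH. It fell in CCS by 0.64 (SE 0.09, adjusted p = 0.00194, limma), in ACS by 1.22 (SE 0.11, adjusted p = 1.8e-04, limma) and in NCS by 1.04 (SE 0.09, adjusted p = 2.1e-04, limma), and was higher in CCS than in ACS by 0.58 (SE 0.09, adjusted p = 0.00633, limma). It entered the tests of ACS and NCS against AH through AH alone and that of CCS against ACS through CCS alone.

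A different order was seen for PSB29 and the 11 kDa protein, whose means were lower in cold-stored fruit than in NCS. PSB29 (FvH4_6g44420), also annotated as THYLAKOID FORMATION1 and needed for thylakoid membranes in *Arabidopsis*, had 4.98, 4.32 and 4.42 RPKM in CCS, 3.89, 4.66 and 3.83 RPKM in ACS, 5.36, 5.30 and 5.75 RPKM in NCS and 6.24, 6.23 and 5.75 RPKM in AH. Its log2 fold change over AH was -0.40 in CCS (SE 0.09, adjusted p = 0.0125, limma), -0.55 in ACS (SE 0.10, adjusted p = 0.00507, limma) and -0.15 in NCS (SE 0.08, adjusted p = 0.200, limma), and the call in CCS was lost without CCS2, CCS3 or AH2 (adjusted p from 0.0542 to 0.0601, limma). The photosystem II 11 kDa protein (FvH4_4g15520) averaged 3.45 RPKM in CCS, 2.66 RPKM in ACS, 3.86 RPKM in NCS and 4.39 RPKM in AH. It fell in ACS relative to AH by 0.69 (SE 0.13, adjusted p = 0.00457, limma) and relative to NCS by 0.52 (SE 0.08, adjusted p = 0.00338, limma). In CCS, whose libraries overlapped those of NCS, the values were -0.33 relative to AH (SE 0.14, adjusted p = 0.102, limma) and -0.16 relative to NCS (SE 0.10, adjusted p = 0.228, limma). PsbP-domain protein 5 (FvH4_2g30170), the highest of the PsbP family, passed in none of the 6 comparisons, with means of 4.65 RPKM in CCS, 4.54 RPKM in ACS, 4.82 RPKM in NCS and 5.26 RPKM in AH. In that family 0 of 5 members tested fell in CCS, 1 of 6 in ACS and 1 of 5 in NCS, against 13.9%, 20.9% and 21.4% of all genes.

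Photosystem I genes were mostly lowest in NCS, and the distance of cold-stored fruit from AH differed from gene to gene. Of the 12 genes, all 3 libraries lay below all 3 AH libraries for 6 in CCS, 7 in ACS and 9 in NCS. The same held for 13.7%, 18.5% and 22.1% of all genes above 0 in CCS, ACS and NCS. PsaF (FvH4_3g11800), which docks plastocyanin in plants, had 3.11, 3.56 and 3.82 RPKM in CCS, 3.16, 2.78 and 3.01 RPKM in ACS, 1.27, 1.19 and 0.966 RPKM in NCS and 5.52, 4.60 and 3.91 RPKM in AH. For PsaF the log2 fold change over AH was -0.40 in CCS (SE 0.15, adjusted p = 0.0720, limma), -0.62 in ACS (SE 0.14, adjusted p = 0.0106, limma) and -1.94 in NCS (SE 0.15, adjusted p = 1.1e-04, limma). It was higher than in NCS by 1.54 in CCS (SE 0.12, adjusted p = 1.2e-04, limma) and by 1.32 in ACS (SE 0.10, adjusted p = 1.6e-04, limma). The CCS call against AH was made without AH3 and missed with it.

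PsaG (FvH4_3g41620), a peripheral membrane subunit, had 5.85, 4.67 and 5.37 RPKM in CCS, 4.98, 4.06 and 4.80 RPKM in ACS, 2.62, 2.58 and 3.02 RPKM in NCS and 5.48, 4.50 and 5.40 RPKM in AH. CCS and ACS overlapped AH, and NCS lay below all of them. Its log2 fold change over AH was 0.04 in CCS (SE 0.12, adjusted p = 0.812, limma), -0.15 in ACS (SE 0.12, adjusted p = 0.365, limma) and -0.88 in NCS (SE 0.11, adjusted p = 9.6e-04, limma). PsaD-2 (FvH4_4g15260), which binds ferredoxin, averaged 2.31 RPKM in CCS, 1.86 RPKM in ACS, 1.69 RPKM in NCS and 3.71 RPKM in AH. It fell in NCS by 1.07 (SE 0.15, adjusted p = 0.00153, limma). It also fell by 0.64 in CCS and 0.99 in ACS. The call in CCS was lost without CCS1, CCS2 or CCS3 (log2 fold change from -0.68 to -0.57, adjusted p from 0.0510 to 0.0700, limma) and that in ACS without ACS2, ACS3 or AH1 (-0.92 to -0.80, adjusted p from 0.0581 to 0.0784).

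PsaN (FvH4_1g24360), a lumenal subunit, was the only member called higher than AH. It had 1.46, 0.982 and 1.47 RPKM in CCS, 1.30, 1.37 and 1.56 RPKM in ACS, 1.01, 0.912 and 0.681 RPKM in NCS and 1.20, 0.923 and 1.08 RPKM in AH. The difference of ACS from AH was 0.38 (SE 0.12, adjusted p = 0.0422, limma) and was lost without ACS1, ACS2, ACS3, AH2 or AH3 (adjusted p from 0.0641 to 0.136, limma). For the PsaA/PsaB gene FvH4_3g21080, whose values by library are given above, no comparison with AH passed, and the log2 fold change in CCS was 0.28 (SE 0.85, adjusted p = 0.835, limma) with AH3 and 1.29 (SE 0.37, adjusted p = 0.0382, limma) without it. In ACS it was 0.92 (adjusted p = 0.493, limma) with all libraries, 0.43 (adjusted p = 0.804, limma) without ACS1, 0.74 (adjusted p = 0.680, limma) without ACS2 and 1.93 (adjusted p = 0.0626, limma) without AH3, and in NCS it was -0.84 (adjusted p = 0.477, limma) with AH3 and 0.17 (adjusted p = 0.655, limma) without it. CCS exceeded NCS by 1.12 (SE 0.28, adjusted p = 0.0172, limma), or by 0.95 without NCS3 (adjusted p = 0.0521, limma). ACS exceeded NCS by 1.76 (SE 0.56, adjusted p = 0.0409, limma), a call lost without ACS1 (1.27, adjusted p = 0.0936, limma), ACS2, NCS1, NCS2 or NCS3 (adjusted p from 0.0841 to 0.113).

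Of the 3 Rubisco small-chain genes, only 1 passed the filter against AH in CCS and NCS, and 2 in ACS. One of them was called lower in all stored fruit, as were the 3 activase genes. By libraries that did not overlap, 2 of the 3 small-chain genes lay below AH in each stored condition. Of all genes above 0, 13.7% did so in CCS, 18.5% in ACS and 22.1% in NCS. The small chain gene 1A (FvH4_6g26030), which encodes the nuclear subunit of the enzyme, had 3.91, 2.61 and 2.81 RPKM in CCS, 3.02, 3.40 and 2.76 RPKM in ACS, 1.72, 2.09 and 1.44 RPKM in NCS and 9.88, 7.99 and 7.51 RPKM in AH. CCS and ACS overlapped each other, above NCS and below AH. Compared with AH, the log2 fold change was -1.43 in CCS (SE 0.18, adjusted p = 0.00100, limma), -1.43 in ACS (SE 0.13, adjusted p = 2.1e-04, limma) and -2.22 in NCS (SE 0.16, adjusted p = 7.7e-05, limma). Over NCS it was higher by 0.79 in CCS (SE 0.19, adjusted p = 0.0129, limma) and by 0.78 in ACS (SE 0.14, adjusted p = 0.00487, limma).

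Among the 3 activase genes, all stored libraries lay well below AH, with smaller differences among the stored conditions. FvH4_6g13160 had 1.54, 1.48 and 1.41 RPKM in CCS, 1.30, 1.27 and 1.36 RPKM in ACS, 1.45, 1.30 and 1.57 RPKM in NCS and 3.46, 4.02 and 3.74 RPKM in AH. FvH4_3g36920 averaged 0.823, 0.618 and 0.636 RPKM in CCS, ACS and NCS and 2.68 RPKM in AH, and FvH4_7g22910 averaged 0.312, 0.265 and 0.151 RPKM in CCS, ACS and NCS and 1.19 RPKM in AH. For each of the 3, every AH library exceeded every stored library and every CCS library exceeded every ACS library. FvH4_3g36920 was higher in CCS than in ACS by 0.36 (adjusted p = 0.00842, limma), and all CCS libraries of FvH4_7g22910 (0.306 to 0.317 RPKM) lay above all its NCS libraries (0.135 to 0.170 RPKM). Their log2 fold changes ranged from -1.64 to -1.28 in CCS, from -1.95 to -1.44 in ACS and from -2.36 to -1.32 in NCS, with adjusted p of at most 9.4e-05 (limma). FvH4_7g22910, which holds the lowest value in CCS and NCS, entered all 3 tests through AH alone.

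A second small-chain gene did not follow this order. FvH4_4g08000 had 0.729, 0.816 and 0.261 RPKM in CCS, 4.88, 0.954 and 0.678 RPKM in ACS, 0.143, 0.337 and 0.162 RPKM in NCS and 0.329, 0.434 and 0.420 RPKM in AH. All ACS libraries lay above all AH and all NCS libraries, and ACS1 was far above the rest. The difference of ACS from AH was 1.70 (SE 0.66, adjusted p = 0.0808, limma) with all libraries, 0.88 (SE 0.18, adjusted p = 0.0137, limma) without ACS1 and 2.22 (SE 0.63, adjusted p = 0.0426, limma) without ACS3. It entered both tests of ACS through ACS alone. ACS exceeded NCS by 2.40 (SE 0.69, adjusted p = 0.0289, limma), by 1.58 without ACS1 (adjusted p = 0.00961, limma), and without a call when NCS1 (adjusted p = 0.0851, limma) or NCS3 (adjusted p = 0.0773, limma) was left out.

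The remaining ribulose genes changed less. D-ribulose-5-phosphate-3-epimerase (FvH4_5g14630), shared by the Calvin cycle and the pentose phosphate pathway, was the most abundant of the 95 genes, with 17.3, 16.2 and 16.9 RPKM in CCS, 14.3, 14.4 and 15.0 RPKM in ACS, 16.1, 16.7 and 17.5 RPKM in NCS and 19.3, 20.8 and 20.4 RPKM in AH. No stored library overlapped AH. It fell by 0.47 on the log2 scale in ACS (SE 0.07, adjusted p = 0.00261, limma). It also fell by 0.26 in CCS and 0.27 in NCS (adjusted p = 0.0340 and 0.0337, limma). The call in CCS was lost without any single one of CCS1, CCS2, CCS3, AH2 or AH3 (log2 fold change from -0.28 to -0.24, adjusted p from 0.0712 to 0.137, limma), and that in NCS without NCS1, NCS2, NCS3, AH2 or AH3 (-0.30 to -0.24, adjusted p from 0.0690 to 0.138). FvH4_6g52980, of the Rubisco methyltransferase family, averaged 7.82 RPKM in CCS, 6.41 RPKM in ACS, 8.20 RPKM in NCS and 7.84 RPKM in AH, and was lower in ACS than in NCS by 0.35 (SE 0.06, adjusted p = 0.00444, limma). It fell by 0.29 relative to AH in ACS, a call lost without ACS1, ACS2, AH2 or AH3 (log2 fold change from -0.29 to -0.26, adjusted p from 0.0511 to 0.116, limma).

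Genes of chlorophyll metabolism among the members did not share one direction. Protochlorophyllide oxidoreductase A (FvH4_3g20600), the light-dependent enzyme of late chlorophyll synthesis, had 1.51, 1.58 and 1.15 RPKM in CCS, 1.22, 1.32 and 1.28 RPKM in ACS, 1.95, 2.01 and 2.16 RPKM in NCS and 2.62, 2.27 and 2.11 RPKM in AH. NCS overlapped AH, and both cold-stored conditions lay below NCS and AH. The log2 fold change over AH was -0.69 in CCS (SE 0.14, adjusted p = 0.00942, limma), -0.82 in ACS (SE 0.10, adjusted p = 7.3e-04, limma) and -0.18 in NCS (SE 0.10, adjusted p = 0.216, limma). Relative to NCS it fell by 0.51 in CCS (SE 0.12, adjusted p = 0.0126, limma) and by 0.64 in ACS (SE 0.06, adjusted p = 3.0e-04, limma). The 5 chlorophyllases, which remove the phytol tail of chlorophyll, averaged at most 0.416 RPKM over the 12 libraries and did not pass the filter in any comparison with AH. The most abundant, FvH4_4g00050, had 0.403, 0.830 and 0.509 RPKM in CCS, 0.269, 0.743 and 0.401 RPKM in ACS, 0.245, 0.279 and 0.453 RPKM in NCS and 0.294, 0.257 and 0.306 RPKM in AH, from 239 reads in all. FvH4_4g01061 and FvH4_4g00030 averaged at most 0.156 RPKM in any condition, from 244 and 31 reads. Chlorophyllase 1 (FvH4_2g23050) averaged 0.0852 RPKM in CCS, 0.0724 RPKM in ACS, 0.0156 RPKM in NCS and 0.201 RPKM in AH, from 164 reads. Every AH library of this gene exceeded every stored library. The pair FvH4_4g00030 and FvH4_4g00050 lies in a run of 3 neighbouring copies, whose reads could have been shared.

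Among the other factors, PIFI fell in all stored fruit. PIFI (FvH4_6g29710), a factor of chlororespiratory electron flow in *Arabidopsis*, had 1.30, 1.30 and 1.51 RPKM in CCS, 1.16, 1.14 and 0.994 RPKM in ACS, 0.770, 0.914 and 0.947 RPKM in NCS and 5.24, 5.46 and 5.38 RPKM in AH. The 4 conditions did not overlap, in the order AH, CCS, ACS and NCS. The log2 fold change over AH was -1.89 in CCS (SE 0.09, adjusted p = 1.3e-05, limma), -2.19 in ACS (SE 0.09, adjusted p = 5.4e-06, limma) and -2.49 in NCS (SE 0.09, adjusted p = 6.4e-06, limma). CCS exceeded NCS by 0.59 (SE 0.09, adjusted p = 0.00279, limma). The smaller differences of CCS over ACS (0.29, adjusted p = 0.0490, limma) and of ACS over NCS (0.30, adjusted p = 0.0385, limma) were called in 0 of 6 and 2 of 6 fits with 1 library left out. Without ACS1, ACS2, NCS1 or NCS2 the difference of ACS over NCS was 0.22 to 0.33 (adjusted p from 0.0652 to 0.111, limma), and with any 1 library left out that of CCS over ACS was 0.23 to 0.33 (adjusted p from 0.0712 to 0.120, limma).

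HCF107, which stabilises a plastid transcript of photosystem II in *Arabidopsis* (FvH4_4g19660), had 8.86, 9.17 and 9.50 RPKM in CCS, 8.86, 8.74 and 9.52 RPKM in ACS, 12.3, 11.1 and 12.9 RPKM in NCS and 16.5, 16.8 and 16.6 RPKM in AH. It was lowest in CCS and ACS, where every library lay below every NCS library, and its log2 fold change over AH was -0.85 in CCS (SE 0.07, adjusted p = 1.7e-04, limma), -0.87 in ACS (SE 0.07, adjusted p = 1.4e-04, limma) and -0.46 in NCS (SE 0.08, adjusted p = 0.00510, limma). Relative to NCS it fell by 0.39 in CCS (SE 0.07, adjusted p = 0.00381, limma) and by 0.42 in ACS (SE 0.07, adjusted p = 0.00400, limma). HCF153 (FvH4_7g02100) averaged 8.58 RPKM in CCS, 7.26 RPKM in ACS, 6.47 RPKM in NCS and 7.48 RPKM in AH, differed from AH in no condition by the test, and was higher in CCS than in NCS by 0.41 (SE 0.08, adjusted p = 0.00801, limma) with the values as deposited. After median-of-ratios scaling that difference was 0.23 and no longer called.

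**Figure D3:**
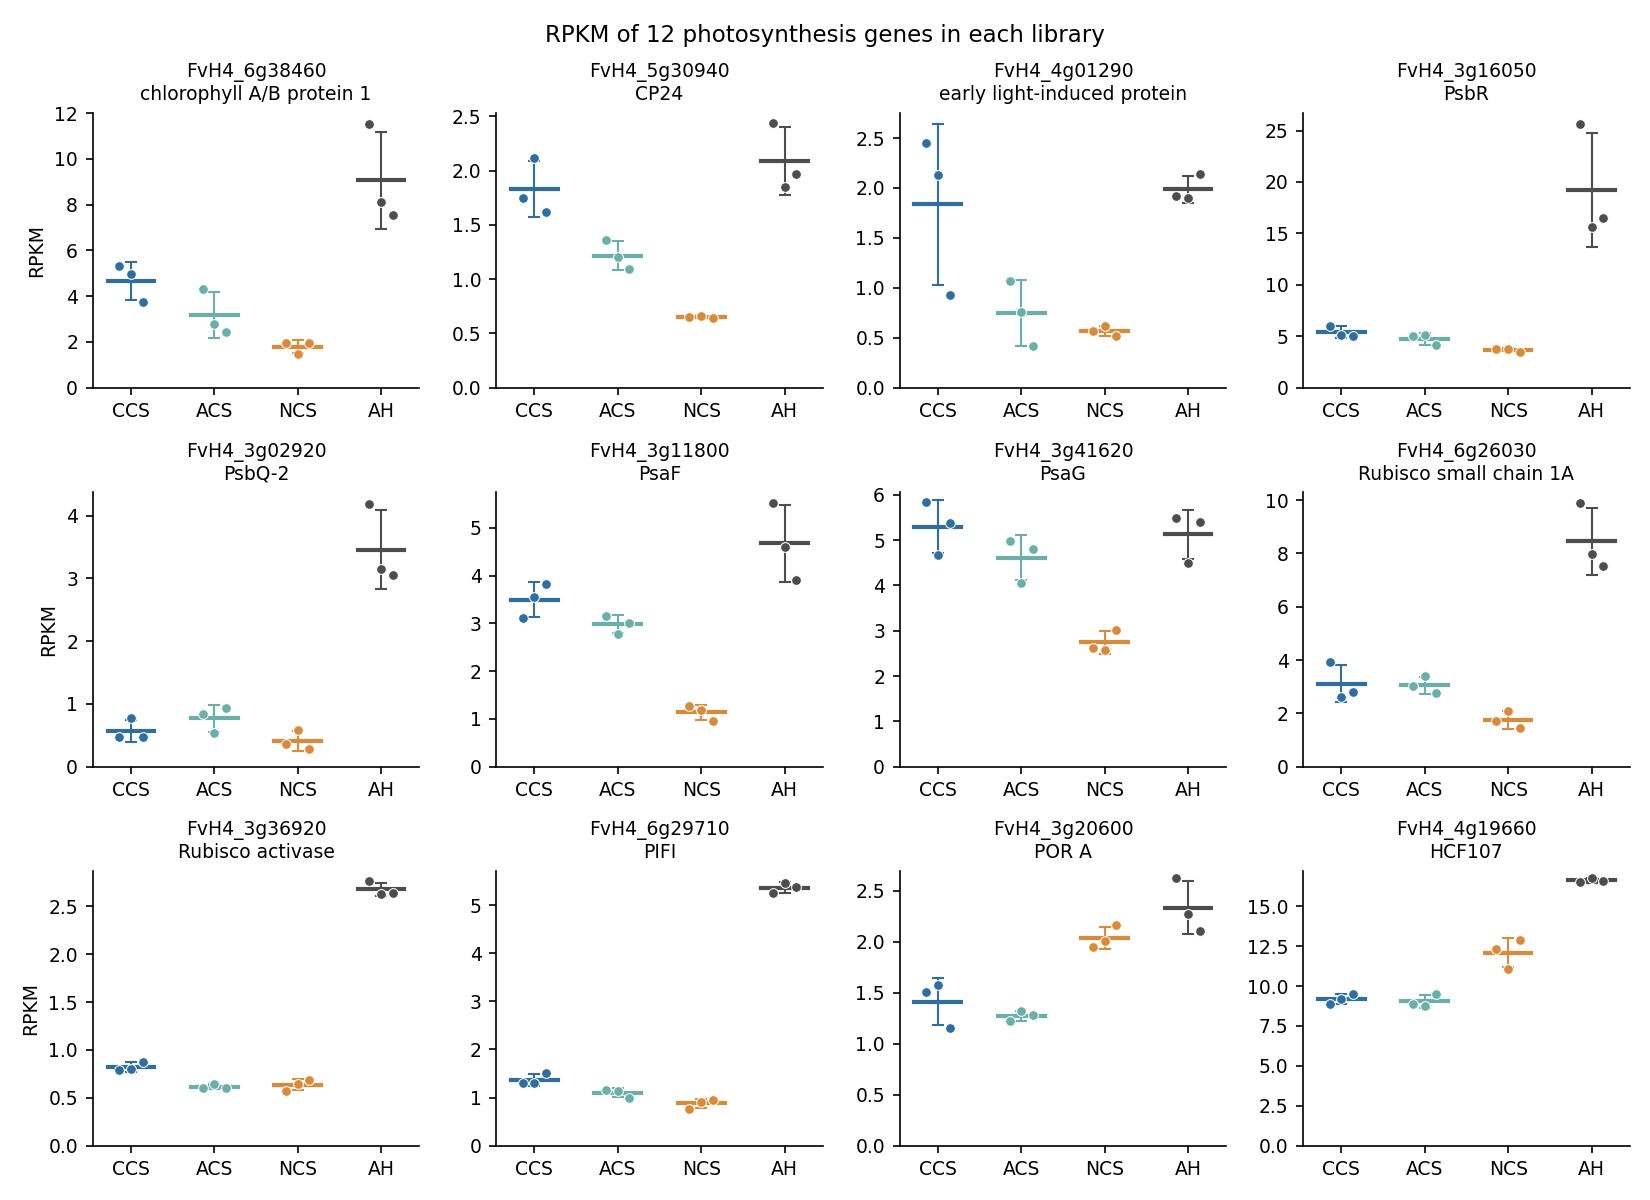
RPKM (vertical axes, from 0) of 12 photosynthesis genes in the libraries of CCS, ACS, NCS and AH, with each point 1 library, the bar the mean and the whisker 1 SD. PsbQ-2, PsbR, the activase and PIFI are high in AH alone, PsaG and CP24 are low in NCS (means of 2.74 and 0.649 RPKM), and POR A and HCF107 are low in both cold-stored conditions (POR A means of 1.42 RPKM in CCS and 1.27 RPKM in ACS).

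Among the stored conditions themselves, members called were mostly higher after cold storage than in NCS, as were all genes called. In CCS compared with NCS, 46 members passed the filter, 25 of them higher and 4 lower, where 37.6% and 14.0% of all genes were so called. In ACS compared with NCS, 43 passed, 17 were higher and 8 lower (39.5% and 18.6%), against 30.9% and 17.1% of all genes. The share lower in ACS was thus near that of all genes. The 17 became 9 without NCS1, 11 without ACS1 and 3 in the fit without AH3, ACS1 and ACS2, in which ACS is 1 library, and the 8 became 5 without NCS3. In CCS compared with ACS, 51 passed, 13 were higher and 0 lower, against 18.4% and 10.3% of all genes. The median log2 fold changes of the members tested were 0.41, 0.17 and 0.21, and those of all genes tested 0.14, 0.08 and 0.07. Past a log2 fold change of 1.5, 2 members were higher for CCS over NCS and 2 for ACS over NCS, where 3.05% and 3.10% of all genes were. The 2 in ACS became 0 without NCS1 or NCS3 and 1 without ACS1, ACS2 or NCS2, and the 2 in CCS became 1 without NCS3 and 3 without CCS3 or NCS1. Of the calls above, 7 in CCS and 3 in ACS compared with NCS, and 1 in CCS compared with ACS, concerned members that entered the test through the first-named condition alone. Median-of-ratios scaling shifted the median of all genes by -0.17, -0.10 and -0.07 in these comparisons and by -0.11, -0.04 and 0.06 in CCS, ACS and NCS compared with AH. It left 19 higher and 6 lower when CCS was compared with NCS (76.0% of calls higher, in place of 86.2%), 12 higher and 10 lower in ACS compared with NCS (54.5%, in place of 68.0%), and 3 higher in CCS compared with ACS. The share of all genes called after scaling was not counted, so these counts cannot be set against the shares above.

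By libraries that did not overlap, CCS exceeded NCS in 47 of 93 members and lay below it in 4, where 32.8% and 11.7% of all genes were. In ACS compared with NCS, 34 were higher and 9 lower, against 28.0% and 14.0% of all genes. In CCS compared with ACS, 22 were higher and 0 lower, against 20.8% and 11.2% of all genes, so that the share of members higher in CCS was near that of all genes. All 3 NCS libraries were below all 9 others in 24 of 94 members (25.5%, against 7.54% of all genes). Of the 12 photosystem I genes, 7 were tested against NCS, of which 6 were higher and 0 lower in CCS and likewise in ACS, and PsaL (FvH4_6g00530) and the P subunit (FvH4_7g17800) entered both tests only through the cold-stored condition. By libraries that did not overlap, 8 of the 12 lay above NCS in CCS and 9 in ACS. Of the 23 light-harvesting proteins, 15 lay above NCS with no overlap in CCS and 8 in ACS, and 0 lay below in either.

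**Figure D4:**
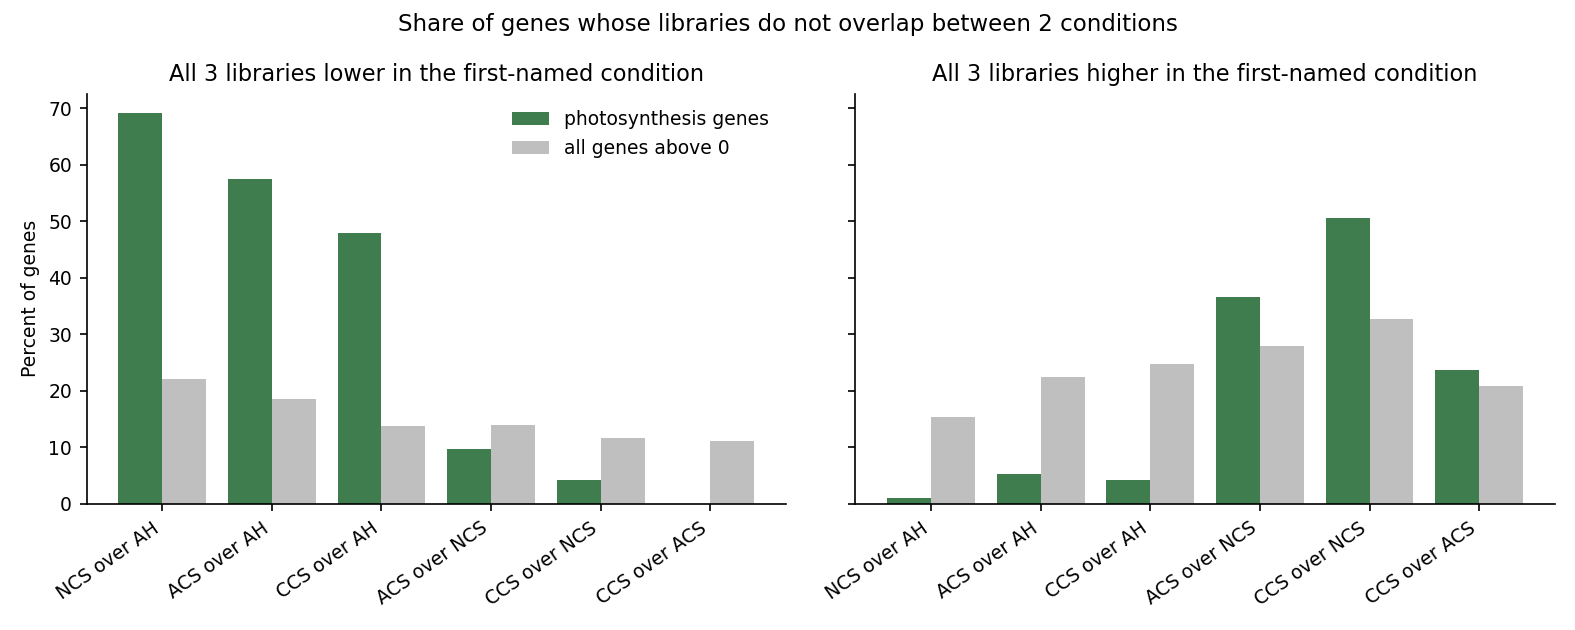
Percent of genes (vertical axis, from 0) whose 3 libraries in the first-named condition all lie below (left) or all lie above (right) the 3 libraries of the second, for the photosynthesis genes above 0 (green) and all genes above 0 (grey). In the comparisons of CCS, ACS and NCS with AH, 45, 54 and 65 members were lower, and in CCS compared with NCS 47 were higher.

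Genes of the same pathways outside the 95 were counted in the same way, where 13.9% of all genes tested fell and 23.6% rose in CCS, 20.9% and 21.9% in ACS, and 21.4% and 14.7% in NCS. Of 53 genes of photosynthetic electron transport, including plastocyanin, ferredoxins and NDH subunits, 11 fell and 5 rose of 36 tested in CCS, 21 fell and 5 rose of 37 in ACS, and 16 fell and 3 rose of 36 in NCS relative to AH. Of 23 Calvin cycle genes, many of which have cytosolic counterparts in glycolysis, 12 were tested in each comparison, and 3 fell and 1 rose in CCS, 4 fell and 1 rose in ACS, and 3 fell and 3 rose in NCS (25.0% each). Of 9 tetrapyrrole synthesis genes, 8 were tested, and 4 fell and 0 rose in CCS, 5 fell and 1 rose in ACS, and 4 fell and 0 rose in NCS. Geranylgeranyl reductase (FvH4_2g15810), which makes the phytol chain of chlorophyll, fell in CCS by 0.57 (adjusted p = 0.0250, limma), in ACS by 0.92 (adjusted p = 0.00274, limma) and in NCS by 0.64 on the log2 scale (adjusted p = 0.0125, limma).

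Chlorophyll breakdown genes outside the members were far more abundant than the chlorophyllases, with a summed mean of 63.3 RPKM in CCS, 63.6 RPKM in ACS, 62.8 RPKM in NCS and 62.1 RPKM in AH for 4 genes. Of these, 1 fell in CCS, 2 in ACS and 1 in NCS, and 0 rose in any of the 3. The pheophorbide a oxygenase gene FvH4_2g27000, whose enzyme opens the chlorophyll ring, fell relative to AH by 0.92 in CCS (SE 0.09, adjusted p = 2.6e-04, limma), by 0.51 in ACS (SE 0.09, adjusted p = 0.00405, limma) and by 0.66 in NCS (SE 0.08, adjusted p = 8.1e-04, limma). Of 29 carotenoid genes, 18 were tested in each comparison, and 6 fell and 4 rose in CCS (33.3% and 22.2%), 6 fell and 4 rose in ACS (33.3% and 22.2%), and 5 fell and 3 rose in NCS (27.8% and 16.7%, near the shares of all genes). Of 5 regulators of light responses, all tested, 0 fell and 0 rose in CCS, 0 fell and 2 rose in ACS, and 2 fell and 0 rose in NCS relative to AH. The largest rise was that of the phytochrome interacting factor 3-like 5 gene FvH4_2g19790 in ACS, by 1.65 (SE 0.26, adjusted p = 0.00257, limma). The HY5-homolog gene FvH4_4g21800 had 2.16, 2.05 and 2.15 RPKM in CCS, 2.08, 2.62 and 2.48 RPKM in ACS, 1.19, 0.957 and 1.04 RPKM in NCS and 2.20, 1.94 and 1.71 RPKM in AH. It was lowest in NCS, where it fell relative to AH by 0.82 (SE 0.12, adjusted p = 0.00204, limma), and was higher than in NCS by 0.94 in CCS (SE 0.08, adjusted p = 2.0e-04, limma) and by 1.10 in ACS (SE 0.11, adjusted p = 4.4e-04, limma).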

How the data were processed

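RNA from ripe fruit was sequenced in 12 libraries, 3 in each of 4 conditions. According to the paper and labels, the authors trimmed reads with Cutadapt (1.16.6), aligned them to *F. vesca* v4.0.a2 with HISAT2 (2.1.0), counted them without strand in SeqMonk and deposited RPKM per gene. Overlapping or near-identical genes may therefore share reads. Columns of the authors' own fold changes were not used.

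Each pair of conditions was tested on its own 6 libraries with limma (3.58.1, R 4.3.3) on log2(RPKM + 0.1), for genes of at least 0.5 RPKM in at least 3 libraries, with Benjamini-Hochberg adjustment over all genes tested. Fold changes of low genes are understated on this scale. Replicates are described as biological. A permutation of 3 against 3 libraries cannot give p below 0.1. On data simulated for NCS and AH (16092 genes), 97 of 100 genes changed by 2 and 99 of 100 changed by 3 on the log2 scale were called, with 7 unchanged genes called. Smaller changes, like most of those reported here, were not simulated. Whole reads were recovered from the RPKM steps for 30995 of 30995 genes above 0 (tolerance of 0.02 reads). Voom on these reads called 3956 genes higher and 2396 lower in CCS, 3729 and 3531 in ACS, and 2462 and 3413 in NCS, relative to AH.

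Members and gene lists were chosen with earlier results of these data known. Values are named for the 3 most abundant members of each role and, in each comparison, up to 3 called members with the largest rise and 3 with the largest fall whose libraries did not overlap. The activase genes, Lhca2, Lhca4, CP29, PsaL, the P subunit, FvH4_1g08270, FvH4_6g53291, the D2 gene and genes outside the 95 were named after their values were seen. No sequence was used here, and the planned promoter count was not run. Alternatives were another pseudocount, no filter or a filter on the mean, scaling, one fit over 12 or 9 libraries, a replicate block, an intensity trend, voom and leaving out each library.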

Additional observations from a re-analysis of the deposited data

How the results depend on the processing

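Among members named by the rule on abundance and size of change, no value changed sign with a call on both sides. Genes named after their values were seen were not part of this check. Without a filter on low values 56 members fell in NCS. The 1 member higher in ACS was lost (0) with a pseudocount of 1, no filter, scaling, the replicate block, the intensity trend, voom and the fit over 9 libraries without AH3, ACS1 and ACS2, a fit chosen after the data were seen, as was the filter on the mean over 12 libraries. That 9-library fit, in which ACS is 1 library assumed to vary like the other groups, gave 1 member higher in CCS than in AH, 3 higher and 2 lower in ACS than in NCS, and 3 higher in CCS than in ACS. Without a filter CCS exceeded NCS in 39 members and ACS in 5, and after scaling CCS exceeded ACS in 3. Shares of all genes called were not counted for these unfiltered comparisons. The same holds for the scaled and 9-library fits, the fits with 1 library left out and the replicate block. Counts under these settings thus show only how the member calls moved. Leaving out 1 library at a time gave 22 to 28 members lower and 0 to 1 higher in CCS, 32 to 35 lower and 0 to 1 higher in ACS, and 30 to 34 lower in NCS relative to AH. It gave 23 to 26 higher and 2 to 3 lower for CCS compared with NCS, 9 to 18 higher and 5 to 8 lower for ACS compared with NCS, and 3 to 14 higher in CCS than in ACS, where the count was 8 without CCS1, 5 without CCS2, 7 without CCS3, 3 without ACS2 and 4 without ACS3. With a pseudocount of 1, members past a log2 fold change of 1.5 numbered 2 lower in CCS, 2 in ACS and 6 in NCS. The cause of these shifts was not tested.

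Replicate numbers did not pair the libraries, since the mean correlation of same-numbered deviations ran from -0.19 to 0.24. With the replicate number as a block, 27 members fell in CCS, 35 in ACS and 33 in NCS relative to AH, 26 were higher and 3 lower for CCS compared with NCS, 14 higher and 7 lower for ACS compared with NCS, and 13 higher in CCS than in ACS. Among 156 values of members named by the rule, the block lost 11 calls and gained 3. Over the same members, 1283 of 1400 values under other alternatives and 786 of 936 with 1 library left out kept direction and side of the threshold. On a gene of median length, about 10 reads in a library equalled about 0.05 RPKM or less, and on shorter members they equalled more. Differences among members near such levels rest on few reads, and small ones may not have been detectable at this depth.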
